A study of Mus musculus with 2 samples.

Results

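Fc receptors are surface proteins that bind the constant part of antibodies. The 5 genes described here encode subunits of these receptors and were taken by their symbols from the deposited gene lists, in which each symbol occurred once among 31053 genes. Fcer1a encodes the alpha chain of the high affinity IgE receptor, which binds IgE. Ms4a2 encodes its beta chain, which amplifies the signal, and Fcer1g encodes the common gamma chain, an adaptor with an activating motif that is shared with many other receptors of myeloid cells. Fcgr3 encodes an activating IgG receptor that needs the common gamma chain, and Fcgr2b encodes the inhibitory IgG receptor. On mouse basophils and mast cells the alpha, beta and gamma chains assemble into 1 receptor, and IgE bound to it triggers degranulation when antigen crosslinks it. The levels of the subunits were compared between both sorts, along the basophil proteases Mcpt8 and Prss34, and between the classes of the sorted cells.

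The cells came from the bone marrow of FVB mice and were sorted into E-cadherin+cKIT+ cells and E-cadherin+cKIT- cells, with 1 single-cell library for each sort. E-cadherin is a cell adhesion protein, and cKIT is the receptor for stem cell factor. The study names the mice as wild-type or as Vav-iCre;mTmG, in which Cre is driven in blood cells and switches on a reporter, and the labels give no age. The cells of several mice went into the libraries, and no label ties a cell to a mouse. After the study's own cell filter, 6479 of 6632 cKIT+ cells with a median of 13039 UMIs and 3662 of 3745 cKIT- cells with a median of 4416.5 UMIs were kept, and 10 barcodes occurred in both libraries. A UMI is the tag of 1 captured RNA molecule, and CPM is the UMIs of a gene per 1000000 UMIs of the cells named. Kit stood at 37.1 CPM in the cKIT+ and 0.875 CPM in the cKIT- library, as the sorts were named, and Cdh1, which encodes E-cadherin, at 62.8 and 193 CPM. Of 10 basophil markers, all 10 were detected in both libraries, whereas 2 of 7 mast cell markers were at 0 in the cKIT+ library and 4 of 7 in the cKIT- library. Each sort is a single library, so no test could be made. Intervals are 95% intervals that cover counting error only.

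All 5 genes lie on the minus strand of the mouse genome (GRCm38), and 4 of them lie on chromosome 1. Fcgr2b (170958617 to 170976547), Fcgr3 (171051174 to 171064935) and Fcer1g (171229572 to 171234365) follow each other, and Fcer1a (173221284 to 173227214) lies farther along. Ms4a2 lies on chromosome 19 (11615523 to 11623719). The bases before the start of the genes for the IgE-specific alpha and beta chains are shown because those genes had the most alike levels over clusters, and because Gata2, a transcription factor of basophils and mast cells, was the gene most like Ms4a2. The 250 bases before the RefSeq start (GRCm38.p6) run from 5′ to 3′ on the gene's strand, at chr1:173227230-173227479 for Fcer1a and at chr19:11623720-11623969 for Ms4a2. Capitals mark AGATAA, a motif that GATA factors can bind, or its reverse complement TTATCT.
Fcer1a: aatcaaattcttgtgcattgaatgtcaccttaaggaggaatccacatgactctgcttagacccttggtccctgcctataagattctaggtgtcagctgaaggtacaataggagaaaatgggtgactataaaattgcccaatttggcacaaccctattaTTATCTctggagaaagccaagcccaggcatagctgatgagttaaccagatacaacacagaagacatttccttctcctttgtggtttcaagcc
Ms4a2: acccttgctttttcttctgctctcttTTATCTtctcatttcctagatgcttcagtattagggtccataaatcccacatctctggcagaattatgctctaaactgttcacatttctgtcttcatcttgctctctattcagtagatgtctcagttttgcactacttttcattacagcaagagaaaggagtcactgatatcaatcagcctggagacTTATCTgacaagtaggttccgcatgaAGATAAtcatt
The search covered AGATAA and its variants AGATAG and TGATAA as well as TGATAG, on both strands, and these letters do not overlap each other in the windows shown. The motif was chosen after the likeness of Ms4a2 to Gata2 was seen. Fcer1a held 1 match, 92 to 87 bases before the start, and Ms4a2 held 3, of which the nearest lay 11 to 6 bases before the start. No match lay in the same window of Fcer1g, of Fcgr2b or of either entry of Fcgr3. Among 32851 windows of this length, 26.5% held at least 1 match and 1.35% held at least 3. A match is a description of the letters and no binding was measured.

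In total, 4 of the 5 subunits took at least 2-fold more of the UMIs in the cKIT- library, where 11.5% of 3224 genes with at least 50 CPM in 1 library did so and 6.14% differed as much toward cKIT+. Fcer1a stood at 377 CPM (373 to 381) in the cKIT+ library and at 1398 CPM (1383 to 1414) in the cKIT- library, which gave a 3.71-fold difference (3.65 to 3.76) toward cKIT-. Ms4a2 had 911 CPM (905 to 917) and 1927 CPM (1909 to 1945), a ratio of 2.12 (2.09 to 2.14). The IgE-specific chains were thus both higher in the cKIT- library, and the alpha chain differed more than the beta chain. Fcer1g stood at 875 CPM (869 to 881) and 2104 CPM (2085 to 2123), a ratio of 2.40 (2.38 to 2.43). Fcgr3 had 181 CPM (179 to 184) and 479 CPM (471 to 489), a ratio of 2.64 (2.58 to 2.71). The inhibitory receptor differed least, since Fcgr2b had 57.4 CPM (55.8 to 59.0) and 69.4 CPM (66.0 to 72.9), a ratio of 1.21 (1.14 to 1.28). These are shares of the UMIs of a library. Per cell, without scaling, the ratio of cKIT+ over cKIT- was 0.607 for Fcer1a, 1.06 for Ms4a2 and 1.86 for Fcgr2b, because a cKIT+ cell held more UMIs in all. The study also reports more sequencing reads per cell for the cKIT+ library. The part of sequencing depth in the UMIs per cell was not tested. Fcgr3 and Fcgr2b resemble each other in sequence, and how reads shared by both were assigned was not checked.

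The sorts also differ in makeup, so the comparison was repeated in cells with at least 30 Mcpt8 UMIs per 10000 UMIs of the cell, of which there were 3391 in the cKIT+ and 2461 in the cKIT- library. The ratio toward cKIT- was then 2.41 (2.37 to 2.45) for Fcer1a, 1.53 (1.51 to 1.55) for Ms4a2, 1.84 (1.82 to 1.86) for Fcer1g, 1.99 (1.93 to 2.04) for Fcgr3 and 1.12 (1.05 to 1.20) for Fcgr2b. In these cells 1 of the 5 subunits stayed past 2-fold, where 6.79% of 3123 genes did and 3.91% differed as much toward cKIT+. The summed level of 6 markers of granulocyte and monocyte progenitors was 12735 CPM in these cKIT+ cells and 7305 CPM in these cKIT- cells, and that of 8 neutrophil markers was 4233 and 567 CPM. The part of those cells or of their free RNA in the ratios was not tested.

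The comparison was narrowed further to 12 combinations of an Mcpt8 range and a Prss34 range with at least 50 cells of each sort. Fcer1a, Ms4a2, Fcer1g and Fcgr3 were each lower in cKIT+ cells in 12 of 12 combinations, with intervals below 1 throughout. The share of all genes that were lower in every combination was not counted. The median ratio of cKIT+ over cKIT- was 0.255 for Fcer1a (range 0.0958 to 0.820), 0.546 for Ms4a2 (0.449 to 0.864), 0.363 for Fcer1g (0.235 to 0.862) and 0.347 for Fcgr3 (0.214 to 0.776). Fcgr2b had a median of 0.925 (0.506 to 1.09), and its interval lay below 1 in 2 combinations and above 1 in 0. The lowest ratios of Fcer1a and Fcer1g both came from cells with 3 to 30 Mcpt8 UMIs and under 3 Prss34 UMIs per 10000. There Fcer1a stood at 66.3 CPM among 647 cKIT+ cells against 692 CPM among 460 cKIT- cells. With at least 300 of each protease it stood at 1156 CPM among 449 cKIT+ cells against 1782 CPM among 1089 cKIT- cells. Fcer1g went from 582 against 2480.0 CPM to 1768 against 2050.1 CPM between the same combinations. The median depth of the cells changed with it, from 11281 against 2797 UMIs to 13577 against 9764 UMIs. The combinations do not match cell class. From 3 to 30 Mcpt8 UMIs 44.4% of cKIT+ and 89.6% of cKIT- cells were basophil-like, and under 3 it was 15.5% and 25.1%. With under 3 of each protease, Fcer1a in cKIT+ cells stood at 9.81 CPM, below its 17.2 CPM in erythroid-like cells. The part of this makeup in the ratios was not tested.

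**Figure D1:**
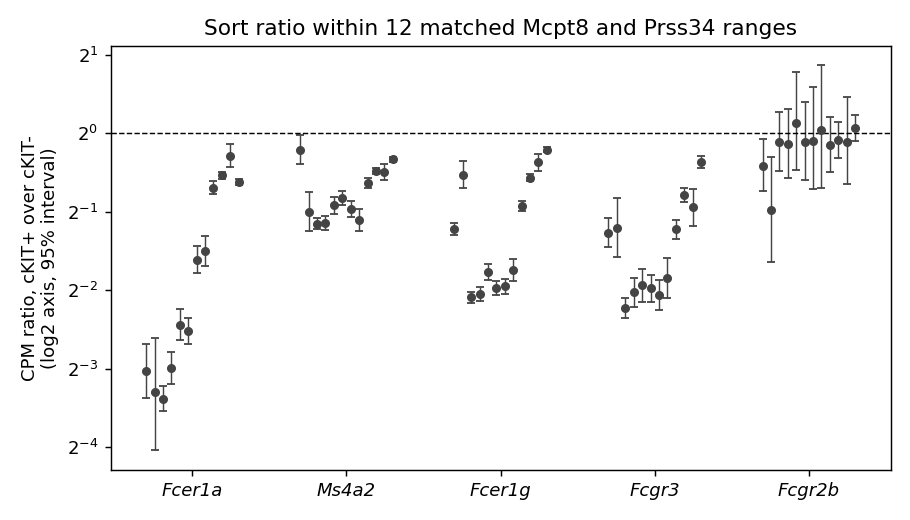
CPM ratio of cKIT+ over cKIT- cells (log2 axis) for each subunit within 12 matched ranges of Mcpt8 and Prss34, drawn in order of rising Mcpt8 range and then rising Prss34 range, with 95% counting intervals. All points of Fcer1a, Ms4a2, Fcer1g and Fcgr3 lie below 1, and those of Fcgr2b lie between 0.506 and 1.09, 3 of 12 above 1.

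Along Mcpt8, the protease that marks basophils, the alpha and the beta chain appeared at different levels of the protease. In cKIT+ cells Ms4a2 had 188 CPM (183 to 193) in cells under 3 Mcpt8 UMIs per 10000, 824 CPM (807 to 841) from 3 to 30, 1107 from 30 to 100, 1363 from 100 to 300 and 1609 CPM (1583 to 1636) at 300 and over. Fcer1a had 10.3 CPM (9.17 to 11.5), 78.4 (73.3 to 83.8), 241, 687 and 1064 CPM (1043 to 1086) in the same ranges. From 3 to 30 Mcpt8 UMIs, Ms4a2 had thus reached about the middle of its highest level while Fcer1a was still low. Of the 1002 cKIT+ cells in this range 44.4% were basophil-like, 26.5% eosinophil-like and 7.88% in the unnamed cluster 10, which held Ms4a2 at 511 and Fcer1a at 48.7 CPM, whereas 89.6% of the 806 cKIT- cells in it were basophil-like. The eosinophil-like class takes in cluster 11, which also had 7 basophil markers on. The part of this makeup in the levels was not tested. At an equal depth of 2000 UMIs per cell, Ms4a2 was detected in 65.0% and Fcer1a in 11.9% of cKIT+ cells of this range. The level of Fcer1a under 3 Mcpt8 UMIs overlapped its 17.2 CPM (9.82 to 27.9) in erythroid-like cells, which should lack the gene. That yardstick rests on 16 UMIs, found in 4.94% of 81 cells. Under 3 Mcpt8 UMIs Fcer1a was thus not told apart from background, although 15.5% of these cells were basophil-like. The ratio of 74.8 (66.8 to 84.1) between cells with at least 100 and cells under 3 is taken against that low level. The same ratio was 7.54 for Ms4a2, 2.57 for Fcer1g, 2.72 for Fcgr3 and 1.29 for Fcgr2b. Hence 4 of 5 subunits were at least 2-fold higher, where 6.33% of 3015 genes were and 4.31% were at least 2-fold lower. With each cell thinned to 2000 UMIs the ratio of Fcer1g fell to 1.84 (1.76 to 1.92), and 3 of 5 were past 2-fold. The share of all genes past 2-fold was not counted in the thinned cells. Kit fell along the same ranges, from 58.4 to 7.24 CPM.

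**Figure D2:**
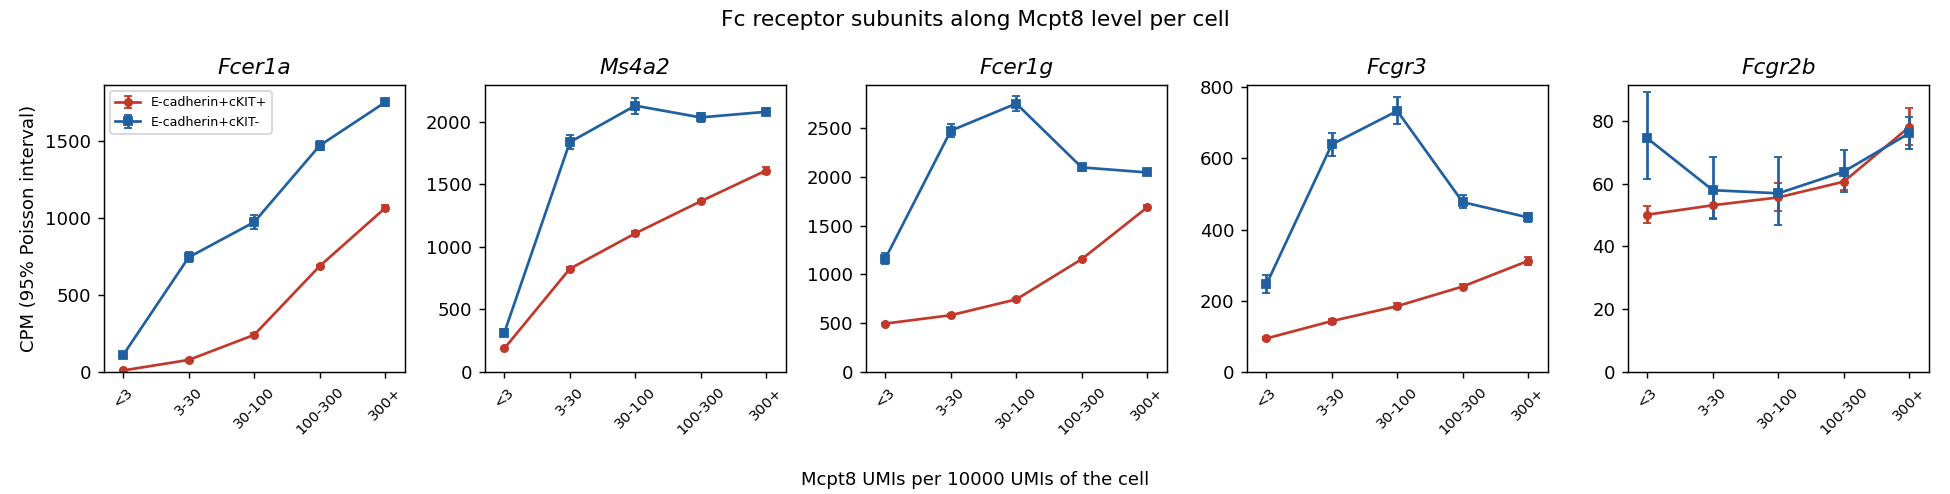
CPM of each subunit (y axis from 0, 95% Poisson intervals) in 5 ranges of Mcpt8 UMIs per 10000 UMIs of the cell, for E-cadherin+cKIT+ (circles) and E-cadherin+cKIT- cells (squares). Fcer1a rises over all ranges in both sorts, Ms4a2 is already high from 3 to 30 in cKIT- cells, and Fcer1g and Fcgr3 of cKIT- cells peak from 30 to 100.

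In cKIT- cells Ms4a2 had reached 1835 CPM (1781 to 1890.2) from 3 to 30 Mcpt8 UMIs and stayed between 2033 and 2127 CPM above that. Fcer1a had 112 CPM (95.8 to 129.9) under 3, 745 CPM (711 to 781) from 3 to 30, 973, 1469.5 and 1750.2 CPM (1726 to 1775) at 300 and over. As a share of all UMIs, the alpha chain therefore kept increasing with Mcpt8 where the beta chain did not. Mcpt8 itself rose from 1419 CPM in the range from 3 to 30 to 40207 CPM at 300 and over, and Prss34 from 462 to 59889 CPM. Levels per range with both proteases left out of the totals were not computed. Fcer1g had 1163, 2473, 2751, 2097 and 2045 CPM, and Fcgr3 had 246, 639, 733, 477 and 434 CPM, so that both were highest in the middle range. The median depth in these ranges was 2906, 2826, 3422.5, 6478 and 9707.5 UMIs. The part of depth in these levels was not tested. Fcgr2b ranged from 56.9 CPM (46.9 to 68.4) from 30 to 100 to 76.0 CPM (71.0 to 81.3) at 300 and over, and its 74.4 CPM (61.4 to 89.3) under 3 overlapped both. The ratio of cells with at least 100 over cells under 3 Mcpt8 UMIs was 14.8 (12.7 to 17.3) for Fcer1a, 6.58 (6.01 to 7.21) for Ms4a2, 1.77 for Fcer1g, 1.82 for Fcgr3 and 0.967 (0.798 to 1.18) for Fcgr2b. Here 2 of 5 subunits were at least 2-fold higher, where 13.5% of 3524 genes were and 14.5% were at least 2-fold lower. Of the 395 cKIT- cells under 3 Mcpt8 UMIs, 41.5% were B cell-like, and the summed level of the neutrophil markers in this range was 86821 CPM, against 66836 CPM in the cKIT+ cells of the range, of which 20.4% were granulocyte/monocyte progenitor-like. With each cell thinned to 2000 UMIs the ratio of Fcer1a was 42.2 in cKIT+ and 8.78 in cKIT- cells, and that of Ms4a2 in cKIT- cells was 4.26.

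Prss34, a second basophil protease, was followed among the cells with at least 30 Mcpt8 UMIs per 10000. Fcer1a in cKIT+ cells had 191 CPM (177 to 206) under 3 Prss34 UMIs, 230.3 from 3 to 30, 366 from 30 to 100, 687 from 100 to 300 and 1125 CPM (1107 to 1144) at 300 and over. In cKIT- cells it had 903 (821 to 991), 961, 897, 1117 and 1727 CPM (1706 to 1748). In cKIT+ cells the level was higher in each range than in the one before, with intervals apart, whereas the lowest 3 ranges of cKIT- cells did not differ beyond their intervals. Ms4a2 moved little, from 1223 to 1535 CPM in cKIT+ cells and between 2059 and 2169 CPM in cKIT- cells. Between cells with at least 300 and cells under 100 Prss34 UMIs, the ratio in cKIT+ cells (929 and 1261 cells) was 3.89 (3.77 to 4.01) for Fcer1a, 1.23 (1.21 to 1.26) for Ms4a2 and 1.14 (1.05 to 1.25) for Fcgr2b. Only Fcer1a among the 5 was at least 2-fold higher, where 2.66% of 2930 genes were and 1.33% were at least 2-fold lower. In cKIT- cells (1611 and 531 cells) the ratio was 1.87 (1.78 to 1.96) for Fcer1a, 0.965 (0.934 to 0.998) for Ms4a2 and 1.23 (1.01 to 1.51) for Fcgr2b. None of the 5 was past 2-fold there, where 11.2% of 3332 genes were at least 2-fold higher and 9.96% at least 2-fold lower.

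**Figure D3:**
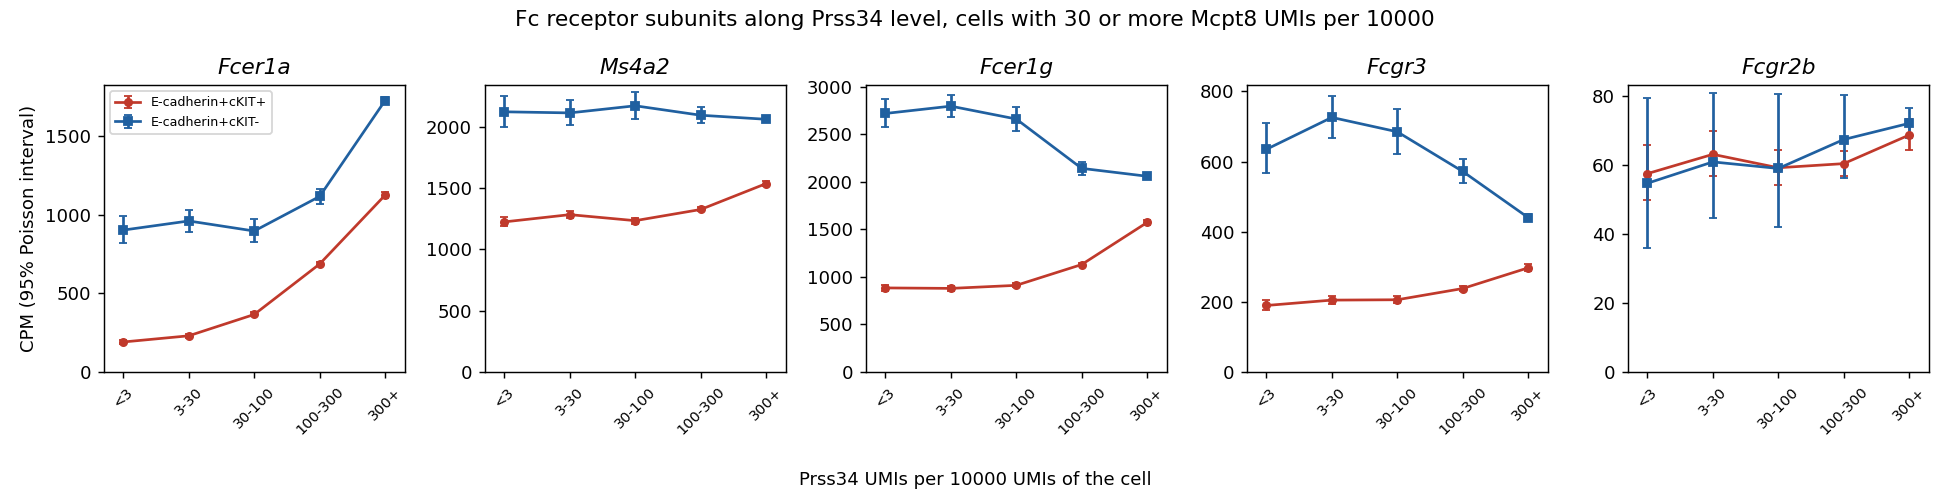
CPM of each subunit (y axis from 0, 95% Poisson intervals) in 5 ranges of Prss34 UMIs per 10000, among cells with at least 30 Mcpt8 UMIs per 10000, for E-cadherin+cKIT+ (circles) and E-cadherin+cKIT- cells (squares). Fcer1g and Fcgr3 rise toward high Prss34 in cKIT+ cells and fall in cKIT- cells, whereas Fcer1a is highest at 300 and over in both.

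Along Prss34 the gamma chain and its partner Fcgr3 were higher toward high Prss34 in cKIT+ cells and lower in cKIT- cells, where the size of the difference depended on the cells taken. In cKIT+ cells Fcer1g had 884 CPM (854 to 916) under 3 Prss34 UMIs and 1572 CPM (1550.3 to 1593) at 300 and over, and the ratio between the upper and lower sets was 1.75 (1.72 to 1.79). In cKIT- cells it had 2718 CPM (2575 to 2868) and 2058 CPM (2036 to 2081), and the ratio was 0.754 (0.733 to 0.777). Fcgr3 had a ratio of 1.47 (1.40 to 1.53) in cKIT+ and 0.640 (0.603 to 0.679) in cKIT- cells. In the cKIT- library the cells under 100 Prss34 UMIs were shallower, with a median of 3392 UMIs against 9172, and 98.5% of both sets were basophil-like. In the cKIT+ library 65.7% of the cells under 100 and 94.7% of those at 300 and over were basophil-like. Of the former, 20.3% lay in the unnamed cluster 7, which also had 7 basophil markers on. Within basophil-like cells alone, a check chosen after seeing the data, the ratio of Fcer1g was 1.82 in cKIT+ and 0.744 in cKIT- cells, and with each cell thinned to 2000 UMIs it was 1.65 and 0.751. In cKIT- cells with at least 5000 UMIs, also chosen after seeing the data, it was 0.95 (0.881 to 1.03), and that of Fcgr3 was 0.785 (0.675 to 0.919). Among cKIT- cells with at least 100 Mcpt8 UMIs the ratio was 0.842 (0.780 to 0.911) for Fcer1g and 0.913 (0.767 to 1.10) for Fcgr3, whose interval then held 1.

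The balance of the activating to the inhibitory IgG receptor was taken as Fcgr3 UMIs over Fcgr2b UMIs of the same cells, which does not depend on the total. In cKIT+ cells it was 1.88 (1.76 to 2.00) under 3 Mcpt8 UMIs per 10000 and 4.0 (3.68 to 4.35) at 300 and over. In cKIT- cells it was 3.31 (2.68 to 4.12) under 3, 12.9 (10.6 to 15.7) from 30 to 100 and 5.71 (5.31 to 6.15) at 300 and over. In cKIT+ cells both receptors were higher at 300 and over than under 3 Mcpt8 UMIs, Fcgr3 with 312 against 94.2 CPM and Fcgr2b with 78 CPM (72.3 to 84.1) against 50.1 CPM (47.6 to 52.8). From 100 to 300 the balance was already 3.96 (3.77 to 4.17), which overlapped that of the highest range.

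RNA of the alpha chain was not detected in some cells that held RNA of the beta and gamma chains. Only RNA was counted, so whether these cells carried the alpha chain protein was not measured. By flow cytometry the study found IgE and its receptor on the surface of most E-cadherin+ blood cells of the marrow. Since no label ties a cell to a mouse, a difference between mice cannot be told apart from one between cells of the same mouse. Cells with at least 100 Mcpt8 and 300 Prss34 UMIs per 10000 and at least 5000 UMIs in all numbered 906 in the cKIT+ and 1367 in the cKIT- library, with medians of 14126 and 10009 UMIs. This set was chosen after seeing the data. No Fcer1a UMI was found in 97 of the 906 cKIT+ cells, or 10.7% (8.77% to 12.9%), and in 68 of the 1367 cKIT- cells, or 4.97% (3.88% to 6.26%). Ms4a2 and Fcer1g were each found in every one of these cells, and a count of 0 allows a share of up to 0.331% and 0.219% of cells without them. If every cell had held the mean level of Fcer1a, counting alone would have left 0.00530% and 0.000861% of the cells without a UMI. For Fcgr3, with 296 and 429 CPM in these cells, 3.97% and 3.51% of cells held none, where counting alone would leave 2.90% and 2.57%. Over cells, Fcer1a ran from 4.60 UMIs per 10000 at the lower quartile to 16 at the upper in cKIT+ cells, and from 8.69 to 23.7 in cKIT- cells. Ms4a2 ran from 11.7 to 18.6 and from 15.7 to 25, around medians of 14.9 and 20 against 10.2 and 15.8 for Fcer1a. The SD over cells was 0.789 of the mean for Fcer1a, 0.342 for Ms4a2 and 0.341 for Fcer1g in the cKIT+ library, and 0.668, 0.346 and 0.298 in the cKIT- library.

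**Figure D4:**
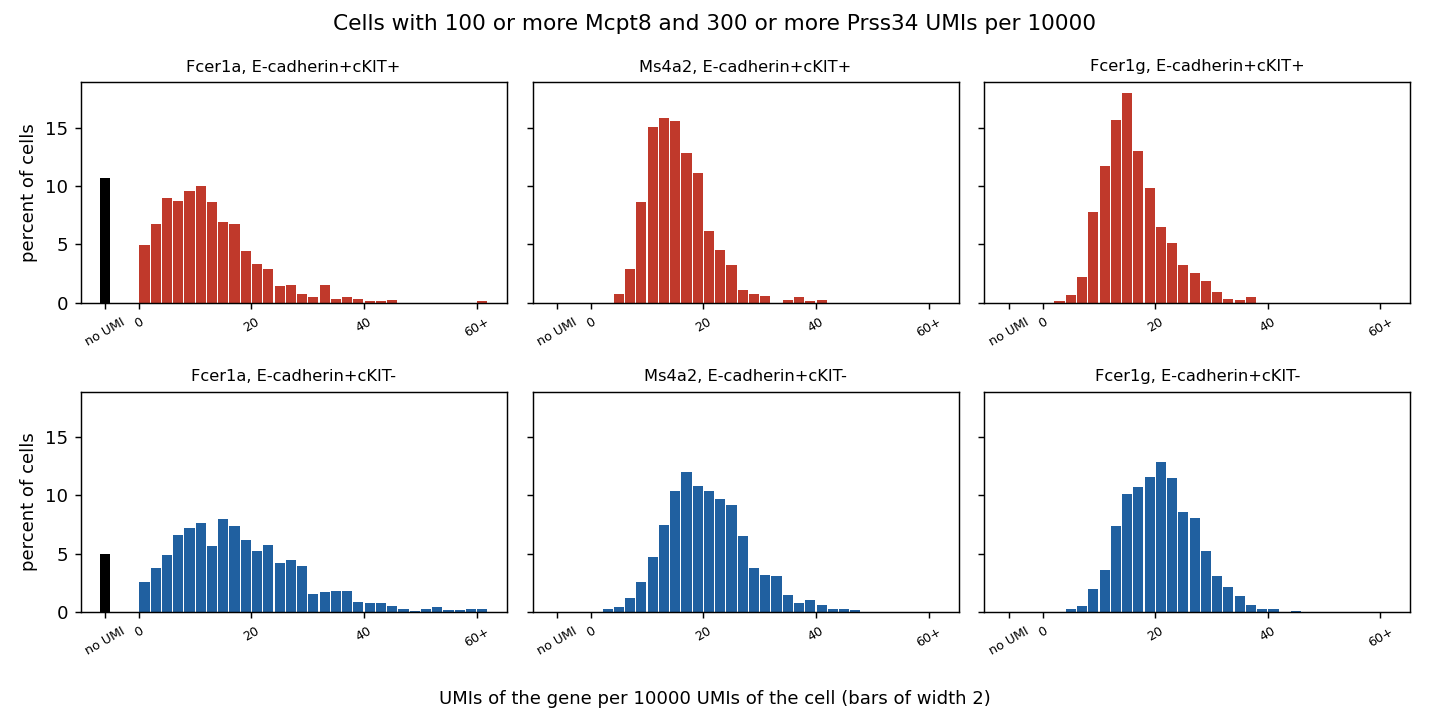
Percent of cells (y axis) by UMIs of Fcer1a, Ms4a2 or Fcer1g per 10000 UMIs of the cell (x axis, bars of width 2), in 906 E-cadherin+cKIT+ (upper row) and 1367 E-cadherin+cKIT- cells (lower row) high in both proteases. The black bar at the left of the Fcer1a panels marks the cells without a UMI, 10.7% and 4.97%, and there is no such bar for Ms4a2 or Fcer1g.

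Among the genes with at least 500 CPM in these cells, 248 in the cKIT+ and 259 in the cKIT- library, 133 and 104 were found in every cell. In the cKIT+ cells 6 genes were missing from as many cells as Fcer1a or more, counting Fcer1a itself, and the other 5 were the division genes and histones Tubb4b, Ube2c, H2afx, Top2a and Hist1h1b. In the cKIT- cells 22 genes were, among them Ube2c, Top2a, Jun, Ccl3 and Mpo. The cells without Fcer1a resembled the rest in the other subunits. Ms4a2 stood at 1712 CPM among the 97 cKIT+ cells without Fcer1a and 1511 CPM among the 809 with it, a ratio of 1.13 (1.08 to 1.18), and at 1923 and 2052 CPM in the cKIT- library, where the ratio was 0.937 (0.886 to 0.990). Fcer1g stood at 1656 and 1560.3 CPM in the cKIT+ and at 2017 and 2046 CPM in the cKIT- library, and Fcgr3 and Fcgr2b had ratios whose intervals held 1 in both libraries. Mcpt8 and Prss34 differed by ratios between 0.968 and 1.07. Besides Fcer1a itself, 7 of 2852 genes in cKIT+ and 6 of 2980 genes in cKIT- cells were past 2-fold between cells without and with Fcer1a. Prg2, an eosinophil granule gene, stood at 305 CPM among the 97 cKIT+ cells without Fcer1a and at 6.46 CPM among the rest, a ratio of 47.3 (37.0 to 61.2), but had 0 UMIs in the 68 cKIT- cells without Fcer1a. Ear2, another eosinophil marker, went the other way and was at least 2-fold lower in the cKIT+ cells without Fcer1a. The hemoglobin genes Hba-a1 and Hbb-bs (11.7 against 207 CPM) were also lower there. Of the genes past 2-fold, S100a8, S100a9 and Camp, which are neutrophil genes, were lower in the cells without Fcer1a in both libraries. Those cells were basophil-like in 90.7% and 98.5% of cases, and 66.0% and 47.1% of them passed the limit on division genes, against 72.1% and 60.9% of the cells with Fcer1a. Among the highest Scrublet scores, which mark likely doublets, were 1.03% and 1.47% of the cells without and 3.09% and 5.62% of those with Fcer1a. The part of doublets in the genes past 2-fold was not tested. The share without Fcer1a was 10.1% and 5.10% in cells with at least 10000 UMIs.

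Cells with UMIs of all 3 chains of the IgE receptor were counted after thinning each cell to 2000 UMIs, because a share depends on depth. Fcer1a, Ms4a2 and Fcer1g were found together in 25.5% (24.4% to 26.6%) of 6134 cKIT+ cells and in 68.3% (66.7% to 69.8%) of 3486 cKIT- cells. With all UMIs the shares were 46.3% and 77.3%. Erythroid-like cells held the 3 together in 0 of 70 cells, which allows up to 4.29% (median 7088 UMIs before thinning, against 13510 and 4669.5 in the sorts). Along Mcpt8 the share in cKIT+ cells was 1.03%, 6.73%, 20.1%, 46.0% and 67.9%, and in cKIT- cells 13.1%, 61.5%, 74.2%, 77.6% and 80.8%. From 30 to 100 Mcpt8 UMIs the share was thus 20.1% (17.2% to 23.3%) in cKIT+ against 74.2% (70.2% to 77.8%) in cKIT- cells. Fcer1g without either IgE-specific chain was found in 84.5% (75% to 91.5%) of macrophage-like and 78.3% (74.3% to 81.9%) of neutrophil-like cells, but in 2.63% of basophil-like cells.

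Over both libraries together, the order of the cell classes differed between the 5 genes. In the cKIT- library, where 4 classes or clusters held at least 50 cells, basophil-like cells were first for all 5 genes. Their interval overlapped that of the next for Fcgr3 and Fcgr2b. The 25 clusters were made without the 5 genes and without other Fc receptor genes, and 6613 cells fell into basophil-like clusters. In order of level over both libraries, Fcer1a had 830.3 CPM (824 to 837) in basophil-like cells, 497 in the unnamed cluster 7 and 319 in the shallow eosinophil-like cluster 11 (median 1794.5 UMIs), followed by 86.4 in the neutrophil-like cluster 16 and 82.4 in the unnamed cluster 19, which overlapped. From the eosinophil-like cluster 13 with 49.9 CPM downward each class overlapped the next, and the lowest value was 7.91 CPM in the neutrophil-like cluster 17. Of the 77 Fcer1a UMIs in cluster 19, 7 came from its 103 cKIT+ cells, which stood at 9.08 CPM (3.65 to 18.7). Clusters 7 and 11 each also had 7 basophil markers on, with Mcpt8 at 16724 and 6447 CPM. The eosinophil-like cluster 13 had 2 on, with Mcpt8 at 1347 CPM. Cluster 7 stayed unnamed because Trbc2, a T or NK cell marker, was among its leading genes. Ms4a2 had 1512 CPM (1503 to 1521) in basophil-like cells, 1407 in cluster 7, 1139 in cluster 11 and 511 CPM (488 to 534) in cluster 10. Of the 546 cells of cluster 7, 521 were cKIT+, and within the cKIT+ library the order turned, with 1397 CPM (1365 to 1429) in cluster 7 and 1292 CPM (1282 to 1302) in basophil-like cells. Cluster 10, with 436 cells, all cKIT+, and led by Gzmb and Cma1, therefore held RNA of the beta chain with little of the alpha chain. Its intervals from the next classes did not overlap for Ms4a2. It also had the second lowest Fcgr2b, with 12.4 CPM (9.12 to 16.4), above 4.29 CPM in erythroid-like cells with an overlapping interval.

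The genes of the gamma chain and of the IgG receptors followed another order. Fcer1g had 2791 CPM (2655 to 2932) in macrophage-like cells, 1879.5 in monocyte-like cells and 1879 in the neutrophil-like cluster 17, which did not differ beyond their intervals, and 1361 CPM (1353 to 1369) in basophil-like cells. That place came from adding up both libraries. In the cKIT+ library basophil-like cells were seventh of 13, with 1031 CPM. In the cKIT- library they were first of 4, with 2214 CPM against 1820.4 CPM in cluster 17. The 9 macrophage-like and 47 monocyte-like cKIT- cells were under the minimum of 50 cells and were not ranked there. The basophil-like cluster 0 had 2749.6 CPM (2696 to 2803), which overlapped the macrophage-like cells. Fcer1g had 192 CPM in granulocyte/monocyte progenitor-like cells and between 64.5 and 94.7 CPM in B cell-like and erythroid-like cells, whose intervals overlapped. Over whole classes and both libraries Fcgr3 was highest in macrophage-like cells, with 364 CPM (316 to 417). From there each class overlapped the next down to monocyte-like cells with 255 CPM, basophil-like cells at 295 CPM among them. Within the cKIT+ library macrophage-like cells, with 374 CPM (324 to 429.7), stood apart from cluster 7, the next, with 279 CPM (265 to 294). Basophil-like cKIT+ cells had 213 CPM (209 to 217), below cluster 17 with 258 CPM (228 to 292). In the cKIT- library basophil-like cells were first, with 506 CPM (496 to 516), and overlapped cluster 17. Among single basophil-like clusters the level ran from 112 CPM in cluster 15 to 679.5 CPM (651 to 709) in cluster 3 and 705 CPM (679 to 733) in cluster 0, and the last 2, mostly of cKIT- cells, stood above the macrophage-like cells. Fcgr2b was highest in the unnamed cluster 19, with 179.7 CPM (154 to 209), which was led by immunoglobulin and antigen presentation genes. It had 115 CPM in monocyte-like and 62 CPM (60.2 to 63.8) in basophil-like cells. When clusters were made from cells thinned to 2000 UMIs, a basophil-like cluster held the highest Fcer1g, at 2829.8 CPM.

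**Figure D5:**
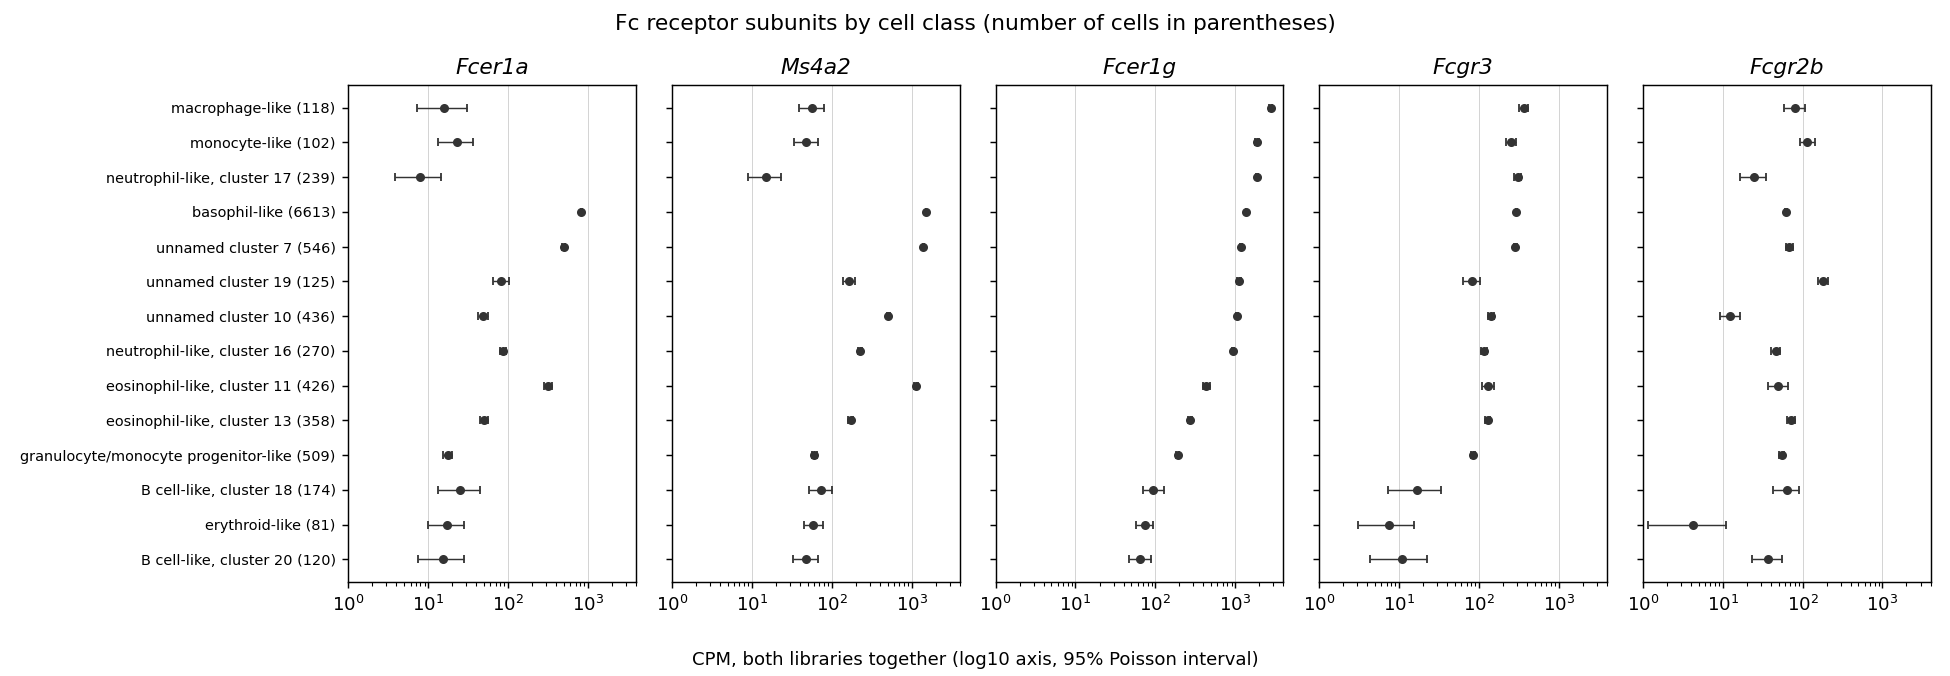
CPM of each subunit (log10 x axis, 95% Poisson intervals) in 14 classes or unnamed clusters of at least 50 cells, over both libraries and in order of Fcer1g. Fcer1a and Ms4a2 are highest in basophil-like cells and cluster 7, Fcer1g and Fcgr3 are also high in macrophage-like, monocyte-like and neutrophil-like cells, and Fcgr2b is highest in cluster 19.

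Within basophil-like clusters that held at least 50 cells of each sort, the alpha chain was again lower in cKIT+ cells. The ratio of cKIT+ over cKIT- for Fcer1a was 0.512 (0.405 to 0.639) in cluster 0, 0.612 in cluster 1, 0.590 in cluster 4, 0.634 in cluster 9 and 0.594 in cluster 12. Ms4a2 had ratios from 0.719 to 0.892 in the same clusters and Fcgr3 from 0.716 to 0.868. Fcer1g had 0.997 (0.908 to 1.09) in cluster 0, where cKIT+ and cKIT- cells had like depths (medians of 2673.5 and 2912 UMIs), and from 0.785 to 0.871 in the others. Fcgr2b had intervals that held 1 in all 5 clusters. In cluster 12, where the medians were 8285 and 8079 UMIs, Fcer1a stood at 918 CPM among 103 cKIT+ cells against 1547 CPM among 314 cKIT- cells. Most basophil-like cKIT+ cells lay in clusters 2, 5, 6, 14 and 15 and most cKIT- cells in clusters 0 and 3, so that levels of the whole class are not compared between the sorts.

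Dividing cells were taken as those with at least 5 UMIs per 10000 summed over 10 division genes, among cells with at least 30 Mcpt8 UMIs. The limit is a range and not a cell type, and 165 cKIT+ and 83 cKIT- cells lay near it. Fcer1a was higher in the dividing cells, with 730.3 against 512 CPM in cKIT+ cells, a ratio of 1.43 (1.39 to 1.46), and 1788 against 1327 CPM in cKIT- cells, a ratio of 1.35 (1.32 to 1.38). Ms4a2 had ratios of 1.01 in both sorts, with intervals that held 1. Fcgr3 was lower in dividing cells, by a ratio of 0.929 (0.895 to 0.965) in cKIT+ and 0.743 (0.713 to 0.774) in cKIT- cells, and Fcer1g had 0.976 and 0.895. The dividing cells were deeper, with medians of 17141 against 11288 UMIs and 10634 against 4621.5 UMIs.

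As a description of likeness, Pearson's r of log2(CPM + 1) was taken over 24 clusters, which share 2 libraries. Fcer1a was most like Rom1 (0.986), Tpd52l1 (0.972), Ms4a2 (0.953), Mcpt8 (0.949) and Alox12e (0.946). Ms4a2 was most like Gata2 (0.978), Trbc1 (0.973), Csrp3, Itga2b and Trp53i13. Fcer1g was most like Tyrobp (0.939), which encodes another adaptor with an activating motif, and Fcgr3 (0.933), the receptor chain that it carries. Fcgr3 was most like Fcer1g, Ggh, Hk2, Itm2b and Rnf130, and Fcgr2b most like Tm6sf1 (0.881), BC028528, Arhgef6 and Edem1. Among the members, r was 0.953 for Fcer1a with Ms4a2 but 0.529 for Fcer1a with Fcer1g. Across single cells with at least 30 Mcpt8 UMIs, thinned to 2000 UMIs, Spearman's rho of Fcer1a with Prss34 was 0.388 over 3313 cKIT+ cells and 0.283 over 2415 cKIT- cells. The same coefficient of Fcer1g with Mcpt8 was 0.337 in cKIT+ and -0.176 in cKIT- cells. Between the members rho was low over these cells. The clusters used for r also take in classes with little Mcpt8, so r and rho cover unlike sets. For Fcer1a with Ms4a2 rho was 0.0567 in cKIT+ and 0.0628 in cKIT- cells, and for Fcer1a with Fcer1g 0.102 and -0.0394. Counts were small after thinning, with means of 1.30 Fcer1a and 2.78 Ms4a2 UMIs per cKIT+ cell. All cells of a sort share 1 library.

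Other genes of the receptor pathway were counted over whole lists. None of 12 other Fc receptor genes reached 50 CPM in either library, and Fcmr, Fcrla and Fcer2a, which B cells use, had 20.9, 15.5 and 12.4 CPM in cKIT- cells. Of 9 genes listed for subunits of other receptors that use the gamma chain, only Il3ra reached 50 CPM, at 114 against 241 CPM (cKIT+ against cKIT-). Il3ra encodes the alpha chain of the IL-3 receptor, and no pairing of that chain with the gamma chain was measured. The adaptors Tyrobp and Hcst stood at 968 against 3716 CPM and at 153 against 458 CPM. Of 16 genes of activating signals below the receptor, 10 reached 50 CPM in 1 library, of which 4 were at least 2-fold lower in cKIT+ cells and 0 higher, where 11.5% of all 3224 genes were lower and 6.14% higher. Their median log2 ratio was -0.965, against -0.0603 over all 3224 genes. These 4 were Lat2 (152 against 488 CPM) and Lat, which encode scaffold proteins, Fyn, a kinase, and Prkcd (49.5 against 177 CPM), a protein kinase C. The kinases Lyn and Syk had 39.2 against 75.8 CPM and 37.8 against 50.8 CPM. Of 14 genes that restrain the receptor, 7 reached 50 CPM, and 4 of them were at least 2-fold lower in cKIT+ cells and 0 higher, against the same 11.5% and 6.14% of all genes, with a median log2 ratio of -1.14. They were Csk (85.0 against 188 CPM), which encodes a kinase that restrains Src kinases, the inhibitory receptors Pirb and Lilrb4a, and the adaptor Dok2. Inpp5d and Ptpn6, which encode the phosphatases SHIP1 and SHP1, had 45 against 64.1 CPM and 95.9 against 126 CPM. The genes of each list that passed 2-fold were thus all lower in the cKIT+ library, and the remaining 6 and 3 genes with at least 50 CPM did not pass it.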

How the data were processed

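Gene expression was measured in single cells with 10x Genomics libraries, 1 for E-cadherin+cKIT+ and 1 for E-cadherin+cKIT- cells. The values deposited by the authors are unnormalized UMI counts. Per the labels, Cell Ranger 3.0.2 and the mm10 build were used. Which annotation release they counted on is not given in the sources used here. The labels name version 2 and version 3 of the kit. Of 31053 gene identifiers, 31011 were found in GENCODE release M21, which gave the coordinates. Promoter windows came from RefSeq, and all 5 genes had one.

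The filter of the study was applied per library (genes seen in fewer than 40 cells were dropped, as were the 1% of cells at either end of the number of genes and the 1% with most UMIs). Kept cells held 91108781 UMIs in the cKIT+ and 22869169 UMIs in the cKIT- library, between 505 and 43698 and between 635 and 21444 per cell. CPM was computed over the summed UMIs of the cells named. Levels per cell of Mcpt8 and Prss34 were cut at 3, 30, 100 and 300 UMIs per 10000, and within 0.8 to 1.25 times a limit lay between 1.99% and 9.97% of the cells of a sort. Thinning to 2000 UMIs left out 345 cKIT+ and 176 cKIT- cells. Clusters used Seurat 5.3.0 in R 4.3.3 (2000 variable genes, 15 principal components, resolution 1). A cluster was named from markers among its 10 leading genes with at least 3 markers on, or as basophil-like with at least 5 basophil markers on. In the latter case no marker of another type could be among the leading genes. A marker was on with at least 20 CPM and at least 10% of its level in the highest cluster. A cluster with several immunoglobulin genes among the leading genes that was not B cell-like was left unnamed, a rule added after its genes were seen. Scrublet in Scanpy 1.11.5 marked 256 cKIT+ and 3 cKIT- cells. Its call did not work in the second library, so doublets were kept. As an alternative, 0.8% per 1000 cells with the top scores were removed.

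The genes, lists and comparisons were chosen with earlier results of these data known. With 1 library per sort no test was made. Sums carry exact Poisson, shares exact binomial (Clopper-Pearson) and ratios exact binomial intervals at 95%, and molecules of 1 cell are not independent, so they cover counting error only. A count of 0 was read as up to 3 counts. TMM scaling, an alternative, came from edgeR 4.0.16. The count of genes past 2-fold between the sorts was run on simulated counts of 2778 genes with at least 50 CPM over both libraries together. Of these, 200 were changed by 4-fold, and 100% of those were recovered. The simulated counts held counting error only, and 4-fold lies well past the limit. The run therefore checks the calculation and not the spread between cells, mice or libraries. All 5 subunits are named. From each list up to 6 genes with the highest CPM or past 2-fold are named, and for each subunit up to 5 genes most like it, in order, of which 1 is not reported here.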

Additional observations from a re-analysis of the deposited data

Results flagged for a closer look

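The ratio between cells with at least 300 and cells under 100 Prss34 UMIs per 10000, among cells with at least 30 Mcpt8 UMIs, lay on opposite sides of 1 in the sorts for 3 of the 5 subunits, with both intervals off 1. It was 1.75 in cKIT+ and 0.754 in cKIT- cells for Fcer1g, 1.47 and 0.640 for Fcgr3, and 1.23 and 0.965 for Ms4a2. Each sort is 1 library, so the difference between the sorts was not tested. The share of all genes with ratios on opposite sides of 1 was not counted. The cKIT- ratios depended on the cells and totals taken. That of Ms4a2 rose to 1.06 when Mcpt8 and Prss34 were left out of the totals. That of Fcgr3 was 0.913 (0.767 to 1.10) in cells with at least 100 Mcpt8 UMIs, and that of Fcer1g was 0.95 (0.881 to 1.03) in cells with at least 5000 UMIs.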

How the results depend on the processing

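No paired analysis was possible because each sort is 1 library, and no replicate could be left out. Per cell without scaling, the ratio of cKIT+ over cKIT- reversed for Ms4a2 (1.06) and Fcgr2b (1.86), and 0 subunits were at least 2-fold lower, against 4 as reported and 1 in cells with at least 30 Mcpt8 UMIs per 10000. Genes past 2-fold numbered 198 higher and 371 lower in cKIT+ cells as reported, 2500 and 1675 with a minimum of 10 UMIs alone, and 61 and 112 with 200 CPM. The Prss34 ratio of Ms4a2 in cKIT- cells was 1.06 with Mcpt8 and Prss34 left out of the totals and 1.07 (0.989 to 1.16) in cells with at least 5000 UMIs, and under both settings 1 subunit, Fcer1a, was at least 2-fold higher, against 0. The share of cells with UMIs of the 3 chains of the IgE receptor was 11.5% in cKIT+ and 43.3% in cKIT- cells at 1000 UMIs. It was 46.3% and 77.3% with all UMIs, and 9.86% and 44.5% with at least 2 UMIs of each. Of 155 values of single subunits under the alternatives, 83 stayed within the limits of the reported value, 68 moved beyond them without reversing, and 4 reversed. These limits were the counting interval. For 10 medians over matched Mcpt8 and Prss34 ranges they were instead the lowest and highest ratio over the combinations, and all 10 stayed within. The cell filter, TMM and the removal of the cells with the highest Scrublet scores changed no direction. The share of cells without Fcer1a stayed within its interval under 4 settings chosen after seeing the data. Thinning to 2000 UMIs moved the Mcpt8 ratio of Fcer1a from 74.8 to 42.2 in cKIT+ and from 14.8 to 8.78 in cKIT- cells, took that of Ms4a2 in cKIT- cells from 6.58 to 4.26, and took that of Fcer1g in cKIT+ cells from 2.57 to 1.84, which left 3 subunits at least 2-fold higher there in place of 4. The share of all genes past 2-fold was not counted per cell without scaling, in thinned cells or under the changed settings of the Prss34 ratio.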
